A study of Solanum lycopersicum with 6 samples.

Results

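Arginine decarboxylase turns arginine into agmatine, the first step of one of the plant routes to putrescine. The genes described here are Solyc10g054440.2, listed as arginine decarboxylase 1, and Solyc01g110440.4, listed as arginine decarboxylase, which are 2 of the 35768 genes in the deposited table. They were picked by identifier, with their difference between genotypes already known, so their values are given as a description with no test. The identifiers place them on chromosomes 10 and 1. RNA came from roots of tomato (Solanum lycopersicum), taken 20 days after germination and sequenced as 3 wild type and 3 slszp1 mutant libraries that the labels call biological replicates. Every plant, wild type included, had been in 60 µM aluminium (Al) at pH 4.7, so the comparison asks what differs between genotypes under Al and not what Al does. The labels give neither the mutation, the line, nor how many plants went into a sample. The SZP1 protein, a zinc finger factor of the C2H2 type, binds STOP1, itself a zinc finger factor for tolerance of Al and low pH. The values carry no unit in the file and were taken as TPM (a relative transcript level corrected for gene length) from their column sums, so levels of different genes can be set side by side. Sequencing depth is unknown on this scale.

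Putrescine is the smallest of the common polyamines, positively charged molecules that bind nucleic acids, membranes and wall pectin. Plants make it from arginine through agmatine and N-carbamoylputrescine, or from ornithine through ornithine decarboxylase. Aminopropyl groups taken from decarboxylated S-adenosylmethionine turn putrescine into spermidine and spermine. Amine oxidases break polyamines down and release hydrogen peroxide. Arginine decarboxylase genes are known in several plants for responses to cold, drought, salt and acid.

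Both arginine decarboxylase genes were lower in the mutant, at about 0.43 and 0.51 of the wild type level. Solyc10g054440.2 had 525.65, 680.59 and 555.4 TPM in wild type replicates 1, 2 and 3 and 235.85, 303.79 and 213.81 TPM in mutant replicates 1, 2 and 3. Wild type replicate 2 was its highest library and mutant replicate 3 its lowest, and the groups did not overlap, the lowest wild type library being 1.73 times the highest mutant library. The means were 587 ± 82.2 TPM in wild type and 251 ± 46.9 TPM in the mutant (SD, n = 3 each). Its difference on the log2(TPM + 1) scale, which is used for every change below as mutant minus wild type, was -1.23 (standard error, SE, 0.19). Solyc01g110440.4 had 154.99, 181.62 and 218.41 TPM in wild type replicates 1, 2 and 3 and 100.29, 98.63 and 81.41 TPM in the mutant. Here wild type replicate 3 was highest and mutant replicate 3 again lowest, with the lowest wild type library at 1.55 times the highest mutant library. Its means were 185 ± 31.8 TPM and 93.4 ± 10.5 TPM, a difference of -0.97 (SE 0.17). The absence of overlap in this direction held for 2 of 2 genes and for 20.2% of all tested genes. By the test used below for other genes, 19.2% of all tested genes differed in either direction, and 6.25% were lower by at least 2-fold. Since the genes were chosen with this contrast in view, nothing is read from these counts. In a whole root, fewer cells of a type and less RNA per cell cannot be told apart.

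**Figure D1:**
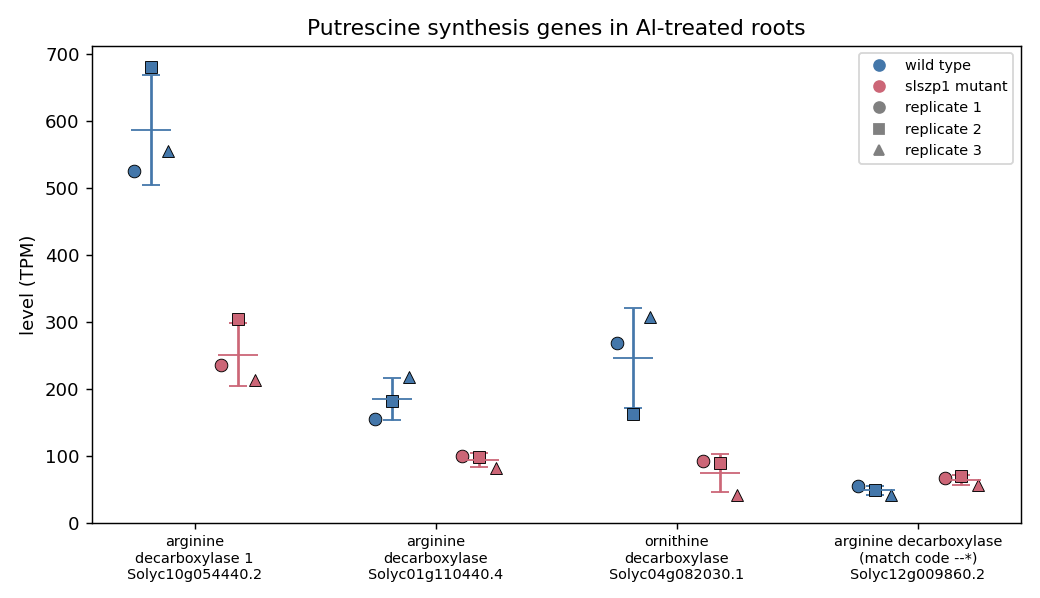
Levels in TPM (linear axis from 0) of the tested genes described as arginine or ornithine decarboxylase, with one point per library, the replicate number as the point's shape, and bars for the mean ± SD of 3 libraries. For Solyc10g054440.2, Solyc01g110440.4 and the ornithine decarboxylase Solyc04g082030.1 every mutant library lies below every wild type library, while for Solyc12g009860.2 every mutant library lies above.

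The arginine decarboxylase genes are abundant transcripts. Of the 17702 tested genes, meaning those that reached 1 TPM in 3 or more of the 6 libraries, only 1.13% had a higher wild type mean than Solyc10g054440.2, and 5.38% a higher one than Solyc01g110440.4. In the mutant these shares were 3.65% and 10.7%. A more negative change was seen in 5.24% of tested genes for the first and 7.83% for the second, which describes their place in the table and tests nothing.

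Solyc10g054440.2 was the more abundant of the pair in every library. Its level was 3.39, 3.75 and 2.54 times that of Solyc01g110440.4 in wild type replicates 1, 2 and 3 and 2.35, 3.08 and 2.63 times in the mutant. The ratios of the genotypes overlapped, so the share of the summed level held by Solyc10g054440.2 was 76.0% ± 3.74 in wild type and 72.7% ± 2.67 in the mutant (SD, n = 3 each). The summed level was 681 to 862 TPM in wild type and 295 to 402 TPM in the mutant. Among libraries of one genotype the genes did not keep the same order, since wild type replicate 2 was highest for one and wild type replicate 3 for the other. The pair are copies of one enzyme, and whether reads were divided between them by the authors' counting was not tested.

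Another 2 genes carry the words arginine decarboxylase. Solyc07g032590.1, marked low quality, was listed at 0 in all libraries. Solyc12g009860.2, whose description has a match code with 1 of 3 stars, held 55.32, 48.79 and 41.14 TPM in wild type and 66.73, 69.06 and 56.11 TPM in the mutant. Its mutant libraries all lay above the wild type ones, but its change of 0.40 (SE 0.16) did not pass (adjusted p = 0.126). Whether it encodes an active decarboxylase was not examined. This and every adjusted p below come from limma, fitted to all tested genes with Benjamini-Hochberg adjustment, and "rose" or "fell" is used where it was under 0.05.

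Ornithine decarboxylase, which gives putrescine in one step, was lower as well. Solyc04g082030.1 held 268.11, 162.68 and 306.81 TPM in wild type replicates 1, 2 and 3 and 92.51, 89.64 and 41.91 TPM in the mutant. The groups did not overlap, with wild type replicate 2 and mutant replicate 3 low within their groups. It fell by 1.74 on the log2 scale (SE 0.36, adjusted p = 0.0149). Its call was lost without wild type replicate 1 (adjusted p = 0.0595) or wild type replicate 3 (adjusted p = 0.0562), within a range of 0.00837 to 0.0595 over all alternatives. The ornithine decarboxylase 2 gene Solyc03g098300.1 was below the expression minimum, at 1.79, 2.69 and 0.88 TPM in wild type and 0.84, 0.44 and 0.16 TPM in the mutant, and Solyc03g098310.1 was listed at 0 throughout. The summed level of both arginine decarboxylase genes was 2.52 to 5.30 times that of Solyc04g082030.1 in wild type and 3.63 to 7.04 times in the mutant, ranges that overlap. Together the 3 genes summed to 949 to 1081 TPM in wild type and 337 to 492 TPM in the mutant. No description in the table holds the words for the enzymes that convert agmatine to putrescine, so that stretch of the route was not followed.

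Around the arginine decarboxylase genes, the polyamine lists held 96 other genes, chosen by words in their descriptions, of which 60 were tested. Of these, 10 fell (16.7%) and 3 rose (5%). Across all tested genes 10.5% fell and 8.71% rose, the shares to set beside each list count by limma below. The median change was -0.24 for the 60 genes and -0.00048 for all tested genes, and 39 of the 60 changes were negative. Some genes matched by these words are named for other substrates. The falls include tyramine and shikimate/quinate hydroxycinnamoyl transferases and a cationic amino acid transporter, and the rises include a tyramine transferase. These counts and medians are a description, not a test of the list.

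**Figure D2:**
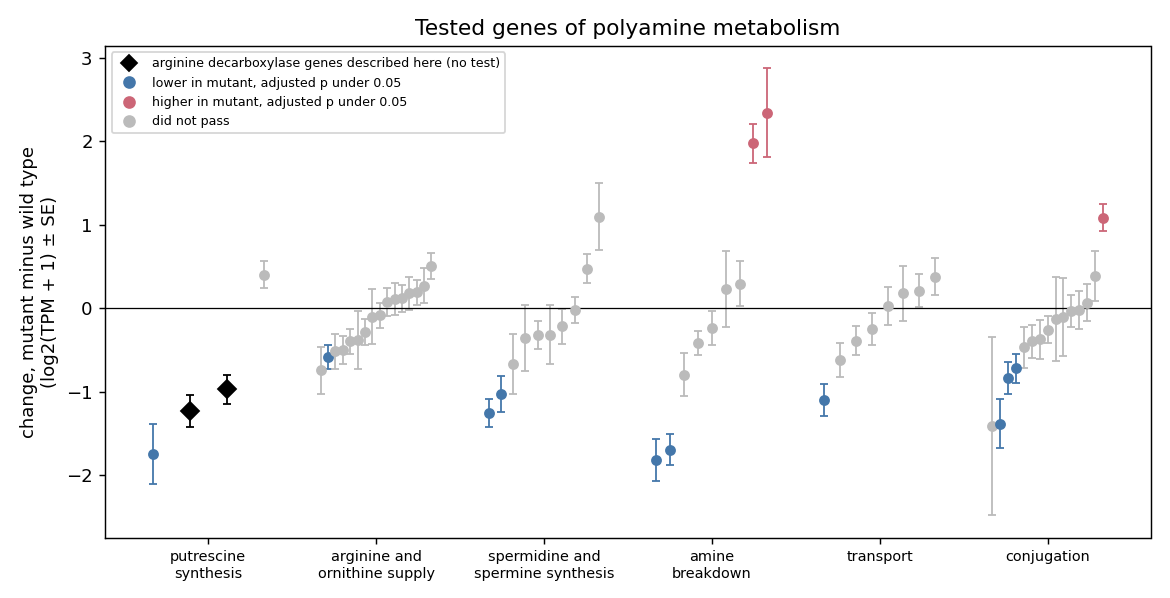
Change in log2(TPM + 1), mutant minus wild type, with its SE, for the tested genes of each polyamine list (one point per gene, ordered by change within a list). Black diamonds are the arginine decarboxylase genes at -1.23 and -0.97, blue points the 10 other genes that fell, red points the 3 that rose and grey points those that did not pass.

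Of 16 tested genes for the supply of arginine and ornithine, 1 fell (6.25%) and 0 rose by limma. At an unadjusted p under 0.05, 5 were lower (31.25%) and 1 was higher (6.25%). For counts of the latter kind, here and below, the shares over all tested genes were 17.3% lower and 15.2% higher. N2-acetylornithine aminotransferase (Solyc08g080370.3), an enzyme on the way to ornithine, held 20.17, 21.54 and 22.97 TPM in wild type and 15.17, 13.23 and 13.88 TPM in the mutant. It fell by 0.58 (SE 0.15, adjusted p = 0.0255), a call lost when any library other than wild type replicate 2 was left out (adjusted p of 0.0547 to 0.0976). Arginase 1 (Solyc01g091160.4), which splits arginine into ornithine and urea and so competes with arginine decarboxylase for its substrate, had 151.5 ± 19.7 TPM in the mutant against 141 ± 29.9 TPM in wild type, with an adjusted p of 0.730. An N-acetylglutamate synthase-like gene (Solyc02g092260.3), at the entry of ornithine synthesis, was just outside the threshold at 26.8 ± 2.70 against 18.6 ± 2.05 TPM (adjusted p = 0.0517), and passed with a replicate block (0.0482), with libraries centred on the median (0.0268) and under quantile normalization (0.0291). Ornithine aminotransferase (Solyc08g048450.3) had 36.3 ± 0.973 against 52.3 ± 10.4 TPM (adjusted p = 0.0704, and 0.0277 without wild type replicate 2).

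Of 10 tested genes in the list for spermidine and spermine synthesis, 2 fell and 0 rose by limma. At an unadjusted p under 0.05, 2 were lower and 2 higher, or 20% each. These 10 include models of upstream reading frames of S-adenosylmethionine decarboxylase, which are not separate enzymes. S-adenosylmethionine decarboxylase, which makes the aminopropyl donor, was represented by a very abundant gene (Solyc05g010420.2) at 3025.33, 1850.75 and 2794.65 TPM in wild type and 1228.99, 1241.12 and 1214.55 TPM in the mutant. The mutant libraries were close together and the wild type libraries spread out, with wild type replicate 2 nearest the mutant. The gene fell by 1.03 (SE 0.22, adjusted p = 0.0127). The model of the upstream reading frame of this enzyme with the next identifier number (Solyc05g010423.1) had 1688 ± 43.1 TPM in the mutant against 1998 ± 499 TPM in wild type and did not pass (adjusted p = 0.521). Its level was 1.32 to 1.41 times that of the decarboxylase model in the mutant and 0.579 to 0.920 times in wild type. Such frames lie on the same messenger RNA as the enzyme in other plants, so reads can be divided between the models and the level of each is uncertain. The levels of the pair summed to 2885 to 2959 TPM in the mutant against 3520 to 5367 TPM in wild type. The other abundant S-adenosylmethionine decarboxylase genes did not pass, Solyc02g089610.2 at 24.6 ± 10.02 against 40.0 ± 18.1 TPM (adjusted p = 0.255, and 0.0334 with a replicate block) and Solyc01g010050.3 at 63.2 ± 7.32 against 45.6 ± 8.58 TPM (adjusted p = 0.0951, and 0.0281 without wild type replicate 2). The upstream reading frame model beside Solyc02g089610.2, Solyc02g089615.1, had 26.5 ± 10.1 against 35.5 ± 19.1 TPM (adjusted p = 0.595). The division of reads between these models is uncertain as well.

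Spermidine synthase, which adds an aminopropyl group to putrescine, fell at one of its genes. Solyc04g026030.3 held 13.79, 14.21 and 12.48 TPM in wild type and 5.08, 5.63 and 4.53 TPM in the mutant, a fall of 1.26 (SE 0.17, adjusted p = 0.00149) kept under every alternative. The more abundant spermidine synthase gene Solyc05g005710.3 stood at 27.6 ± 1.71 TPM in the mutant against 28.2 ± 3.90 TPM in wild type (adjusted p = 0.932). Spermine synthase (Solyc03g007240.3) had 17.1 ± 1.99 against 21.6 ± 3.12 TPM (adjusted p = 0.234). Another spermidine synthase gene (Solyc09g075900.3) was higher in every mutant library without passing, at 4.49 ± 3.004 against 1.40 ± 0.659 TPM (adjusted p = 0.0978, and 0.0417 without mutant replicate 2).

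Amine breakdown held calls in both directions, 2 genes lower and 2 higher of 9 tested (22.2% each). A gene described as a copper-containing amine oxidase (Solyc08g079430.3), a class that oxidises putrescine, held 8.75, 11.65 and 11.09 TPM in wild type and 2.66, 1.33 and 3.01 TPM in the mutant. It fell by 1.82 (SE 0.25, adjusted p = 0.00174). Solyc07g043590.3, an amine oxidase of no stated class, had 44.7 ± 5.92 TPM in wild type and 13.3 ± 2.89 TPM in the mutant. It fell by 1.69 (SE 0.19, adjusted p = 0.000647). In contrast, the amine oxidase Solyc09g075930.2 held 1.05, 1.47 and 0.87 TPM in wild type and 6.4, 6.19 and 9.79 TPM in the mutant, a rise of 1.97 (SE 0.24, adjusted p = 0.000915). The gene with the next identifier number, Solyc09g075940.3, also described as an amine oxidase, held 9.99, 38.53 and 23.93 TPM in wild type and 134.35, 67.65 and 151.05 TPM in the mutant. It rose by 2.34 (SE 0.53, adjusted p = 0.0279), a call lost with a replicate block (0.0504) and without mutant replicate 1 (0.0967), mutant replicate 3 (0.0894) or wild type replicate 3 (0.0816). Near copies can share reads, so the separate levels of these neighbours are uncertain. The most abundant gene of the list, the amine oxidase family gene Solyc02g081390.3, had 221 ± 9.66 against 296 ± 28.4 TPM and did not pass (adjusted p = 0.0862). Polyamine oxidase (Solyc01g087590.3), which acts on spermidine and spermine, had 1.48 ± 0.456 against 3.33 ± 0.947 TPM (adjusted p = 0.0621, and 0.0467 without wild type replicate 3). Betaine aldehyde dehydrogenase (Solyc03g113800.3), a family that oxidises aminoaldehydes, had 57.3 ± 8.09 against 68.6 ± 18.5 TPM (adjusted p = 0.482).

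Oxidation of putrescine can lead to gamma-aminobutyrate (GABA). Of 8 tested genes of the GABA list 2 fell (25%) and 1 rose (12.5%). GABA transaminase (Solyc07g043310.3), which removes GABA, held 731.51, 936.84 and 845.49 TPM in wild type and 356.43, 375.97 and 347.36 TPM in the mutant, a fall of 1.21 (SE 0.16, adjusted p = 0.00146). Another gene described as a GABA transaminase (Solyc12g006450.2) was higher in every mutant library without passing, at 38.6, 59.51 and 79.89 TPM there against 32.13, 4.35 and 34.26 TPM in wild type. The difference was 1.65 (SE 0.78, adjusted p = 0.206), and 0.76 without wild type replicate 2, its lowest library. Succinic semialdehyde reductase (Solyc09g018790.3) had 35.7 ± 1.61 against 52.4 ± 5.73 TPM and fell by 0.54 (SE 0.14, adjusted p = 0.0301), a call lost with a replicate block (0.0536) and when any library other than wild type replicate 2 was left out (0.0564 to 0.121). The glutamate decarboxylase gene Solyc05g054050.3 had 16.9 ± 2.997 against 8.08 ± 3.85 TPM and rose by 1.05 (SE 0.29, adjusted p = 0.0365). That call was the least stable of those named. Over the alternatives its adjusted p ran from 0.00332 to 0.114, and it was lost with libraries centred on the median, with no filter, under quantile normalization, with a replicate block and when any library other than wild type replicate 2 was left out.

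Of the transport list 8 genes were tested, each described as a cationic amino acid transporter, of which 1 fell and 0 rose by limma, with 2 lower (25%) and 0 higher at an unadjusted p under 0.05. Solyc12g011370.2 held 7.92, 9 and 9.77 TPM in wild type and 2.99, 4.34 and 3.63 TPM in the mutant, a fall of 1.09 (SE 0.19, adjusted p = 0.0055). The most abundant of them, Solyc10g081460.2, did not pass at 89.8 ± 11.4 against 118 ± 21.8 TPM (adjusted p = 0.168). The gene whose description names polyamine transport, Solyc05g021510.2, was listed at 0 in every library.

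Conjugation joins amines to hydroxycinnamic acids, and 3 of 15 tested genes of that list fell (20%) while 1 rose (6.67%). Most members are tyramine hydroxycinnamoyl transferases, which use tyramine and not putrescine as their main known amine. Solyc08g068730.1 had 636 ± 91.2 TPM in the mutant against 1134 ± 160.1 TPM in wild type and fell by 0.83 (SE 0.19, adjusted p = 0.0165, and 0.0544 without mutant replicate 3). Solyc08g068710.1 had 111 ± 46.5 against 276 ± 37.5 TPM and fell by 1.38 (SE 0.29, adjusted p = 0.0143, and 0.0538 without wild type replicate 1). Over all alternatives the adjusted p ran from 0.0169 to 0.0544 for the first and from 0.00423 to 0.0538 for the second. Solyc08g068770.2 rose by 1.09 (SE 0.16, adjusted p = 0.0021), with 309 ± 39.8 against 145 ± 11.1 TPM. These genes lie close together by identifier and are copies of one family, so reads can be divided among them. The remaining fall was of a shikimate/quinate hydroxycinnamoyltransferase (Solyc03g117600.3), an enzyme of phenylpropanoid synthesis that conjugates no amine, at 14.8 ± 1.68 against 25.2 ± 4.32 TPM. It fell by 0.72 (SE 0.17, adjusted p = 0.0223), a call lost without mutant replicate 2 or 3 or wild type replicate 1 or 3 (0.0656 to 0.0779). The genes that name agmatine, the product of arginine decarboxylase, did not pass. Agmatine coumaroyltransferase-2 (Solyc11g071470.1) had 15.2 ± 6.36 against 10.8 ± 1.67 TPM (adjusted p = 0.414). The low-quality agmatine hydroxycinnamoyltransferase model Solyc09g014430.1 held 0.39, 2.94 and 0 TPM in the mutant against 0, 6.38 and 12.99 TPM in wild type (adjusted p = 0.422, and 0.0494 without wild type replicate 1).

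S-adenosylmethionine feeds both spermidine synthesis and ethylene synthesis. The next list holds S-adenosylmethionine synthases and genes whose descriptions name 1-aminocyclopropane-1-carboxylate (ACC). The latter include ACC synthases, ACC oxidases and an ACC deaminase/D-cysteine desulfhydrase gene. Of 22 tested genes in this list 5 rose (22.7%) and 1 fell (4.55%). Over all tested genes the shares were 8.71% higher and 10.5% lower. Among the ACC oxidases, which release ethylene, calls went in both directions. Those most abundant in wild type did not pass. Solyc07g049550.3 had 257 ± 106 TPM in the mutant against 252 ± 40.9 TPM in wild type (adjusted p = 0.946). For Solyc07g049530.3 the levels were 366 ± 143 against 230 ± 45.7 TPM (adjusted p = 0.188). Solyc07g026650.3 rose from 90.7 ± 30.4 to 565 ± 237 TPM and Solyc02g036350.3 from 6.55 ± 2.71 to 39.8 ± 10.4 TPM, by 2.60 (SE 0.33) and 2.46 (SE 0.28), with adjusted p of 0.0017 and 0.000813. An ACC oxidase-like gene (Solyc11g045520.2) rose to 25.05 ± 7.25 TPM from 0.103 ± 0.118 TPM (adjusted p = 2.7e-05). The other two rises were of genes described as ACC synthase, which makes ACC, and both were lost in some alternatives. Solyc08g008087.1 had 44.5 ± 12.8 against 23.3 ± 3.06 TPM (adjusted p = 0.0211) and did not pass without mutant replicate 2 (0.0575), nor without replicate 1 (0.0684) or 3 (0.0625) of wild type. Solyc04g072815.1, whose description has a match code with 1 of 3 stars, had 20.0 ± 1.06 against 12.8 ± 1.86 TPM (adjusted p = 0.0294). Among the fits with a library left out it passed only without wild type replicate 3, the others giving 0.0549 to 0.110. Whether it encodes an active ACC synthase was not examined. The ACC synthase gene most abundant in wild type, Solyc01g095080.3, was lower in every mutant library without passing. It had 19.9 ± 9.81 TPM in the mutant against 49.9 ± 19.0 TPM in wild type (adjusted p = 0.083). Solyc06g060070.3, an ACC oxidase, fell by 1.33 (SE 0.21, adjusted p = 0.00347), to 15.6 ± 1.46 from 41.9 ± 11.9 TPM. The well-matched S-adenosylmethionine synthase genes Solyc12g099000.2 and Solyc10g083970.1 did not pass, at 64.4 ± 6.43 against 89.5 ± 6.26 TPM (adjusted p = 0.0513, and 0.0391 under quantile normalization) and 83.5 ± 14.5 against 109 ± 11.3 TPM (adjusted p = 0.151).

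The list of other decarboxylases holds enzymes acting on amino acids and 2 tested genes for phosphatidylserine decarboxylase, an enzyme of phospholipids. Of its 10 tested genes 2 were lower (20%) and 1 was higher (10%). An aromatic amino acid decarboxylase 2 gene (Solyc08g006750.3), of a family that makes tyramine and related amines, held 265.69, 386.73 and 266.93 TPM in wild type and 84.26, 91.62 and 48.37 TPM in the mutant, a fall of 2.05 (SE 0.27, adjusted p = 0.0015). The gene with the preceding identifier number and the same name, Solyc08g006740.3, had 234 ± 17.7 against 230 ± 17.5 TPM (adjusted p = 0.927). Serine decarboxylase (Solyc04g071140.3), which makes ethanolamine, rose from 129 ± 36.3 to 317 ± 104 TPM (adjusted p = 0.0141). A gene described as histidine decarboxylase (Solyc08g068660.1) fell from 15.1 ± 8.34 to 3.77 ± 0.492 TPM (adjusted p = 0.0124, and 0.0554 without mutant replicate 3, the highest over the alternatives). The eIF5A list holds eIF5A genes, deoxyhypusine synthase, which modifies eIF5A with spermidine, and deoxyhypusine hydroxylase. Of its 7 tested genes 0 passed by limma. An unadjusted p under 0.05 was seen in 0 of them, against 32.5% of all tested genes in either direction. The most abundant was Solyc07g005560.3 at 422 ± 29.0 against 513 ± 36.6 TPM (adjusted p = 0.241).

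**Figure D3:**
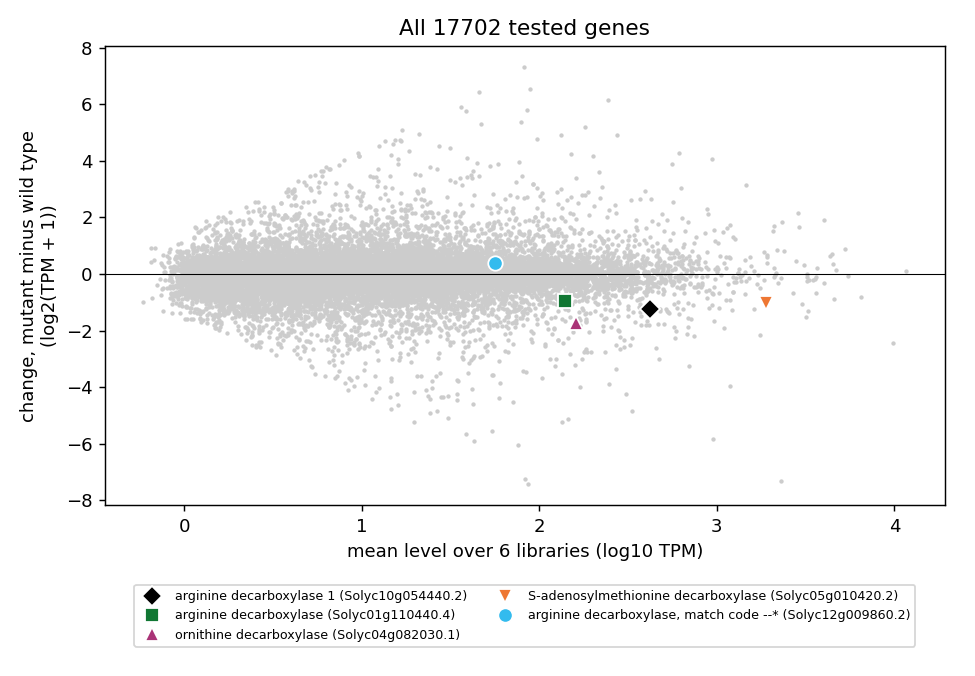
Each grey point is 1 of the 17702 tested genes, by its mean level over 6 libraries (log10 TPM) and its change in log2(TPM + 1), mutant minus wild type, with 5 genes of polyamine synthesis marked. The arginine decarboxylase genes, at -1.23 and -0.97, lie among abundant genes. Ornithine decarboxylase lies at -1.74, the more abundant S-adenosylmethionine decarboxylase at -1.03, and Solyc12g009860.2 above 0 at 0.40.

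Profiles were compared by the root mean square difference of log2(TPM + 1) over the 6 libraries, each gene centred on its own mean, among 10022 other tested genes with a mean of at least 10 TPM. Closest to Solyc10g054440.2 were a low-quality NHL domain protein model (Solyc02g087030.1, difference 0.091), a gene described as Rapid ALkalinization Factor, a family of secreted signalling peptides (Solyc01g067900.3, 0.098), an ethylene-responsive transcription factor gene (Solyc04g071770.3, 0.101), an FAD-dependent oxidoreductase gene (Solyc11g006540.2, 0.105) and a negatively light-regulated protein gene (Solyc05g007800.3, 0.116). The ethylene-responsive factor gene was also similar in level, at 501 ± 86.9 TPM in wild type and 238 ± 41.6 TPM in the mutant. Closest to Solyc01g110440.4 were a serine/threonine-protein kinase gene (Solyc02g079533.1, 0.081), an N-acetyltransferase gene (Solyc05g010250.2, 0.106), an aspartic proteinase gene (Solyc02g032940.3, 0.106), beta-amylase 1 (Solyc09g091030.3, 0.112) and a RIN4 family gene (Solyc05g051710.3, 0.114). The lists share no gene. The arginine decarboxylase genes differed from each other by 0.239, so that Solyc01g110440.4 ranked 90 among the genes most like Solyc10g054440.2, and Solyc10g054440.2 ranked 220 in the reverse order. Ornithine decarboxylase stood at 0.542 and 0.548 from them, at ranks 2025 and 4344, and S-adenosylmethionine decarboxylase (Solyc05g010420.2) at 0.376 and 0.289, at ranks 535 and 487. All 10 listed genes were lower in every mutant library, as the choice by likeness to these profiles makes probable, and they get no test.

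**Figure D4:**
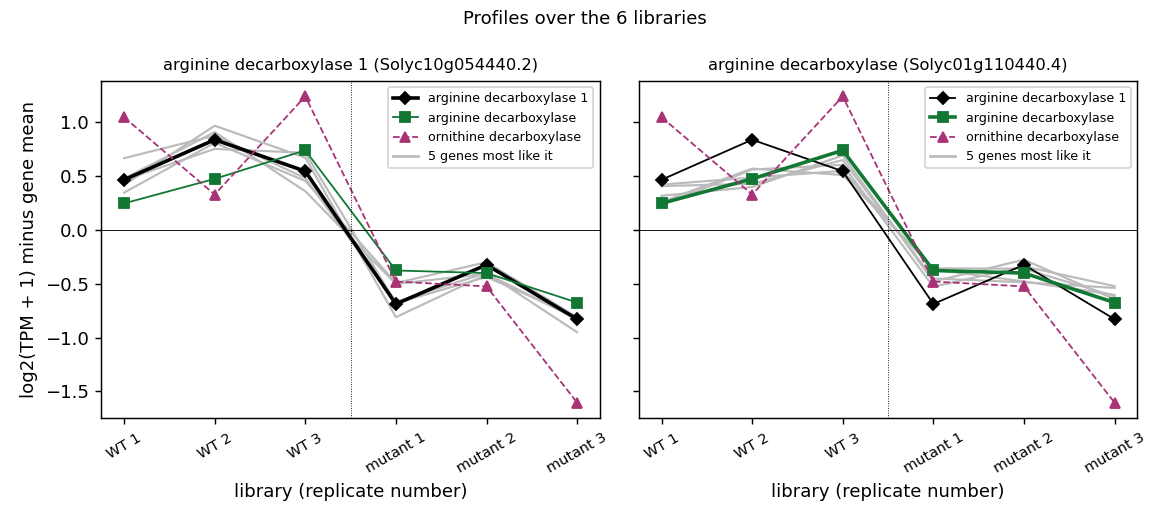
Values of log2(TPM + 1) minus the gene's mean, for each library of wild type (WT) and mutant, for arginine decarboxylase 1 (left, bold) and the other arginine decarboxylase gene (right, bold), with ornithine decarboxylase dashed and the 5 genes most like the bold gene in grey. Lines only join the points of a gene. Both arginine decarboxylase genes are lowest in mutant replicate 3, where ornithine decarboxylase also has its lowest value. In wild type replicate 2 arginine decarboxylase 1 has its highest value and ornithine decarboxylase its lowest wild type value.

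By number in the identifier, the listed neighbours of Solyc10g054440.2 were hardly expressed. Of the 3 on either side, none exceeded 5 TPM in any library and 3 were listed at 0 throughout. Beside Solyc01g110440.4, the low-quality nudix hydrolase model Solyc01g110430.3 had 257 ± 44.2 TPM in the mutant against 407 ± 24.7 TPM in wild type. It fell by 0.68 (SE 0.17, adjusted p = 0.0271), lost in 6 of the alternatives, with a range of 0.0248 to 0.0762. On the other side Solyc01g110450.3 had 15.4 ± 0.945 against 15.1 ± 2.48 TPM (adjusted p = 0.911), and the next gene, a steroid dehydrogenase family member (Solyc01g110460.3), had 3.53 ± 0.752 against 6.38 ± 0.703 TPM and fell by 0.71 (SE 0.20, adjusted p = 0.0398), also lost in 6 alternatives, with a range of 0.0214 to 0.145. The remaining neighbours of this gene did not pass. Whether reads of the nudix hydrolase model and of Solyc01g110440.4 were mixed was not tested.

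Per library, 17050 to 17728 genes reached 1 TPM. Descriptions do not name SZP1, so the mutated gene was not followed. Root words (Casparian strip membrane protein, root cap, SCARECROW, SHORT-ROOT, root hair) matched 18 genes, of which 11 were tested, with a summed level of 286 to 296 TPM in the mutant against 283 to 301 TPM in wild type, and SHORT-ROOT matched 0 genes. Shoot words matched 151 genes, of which 31 were tested and 66 were at 0 in all libraries, with 578 to 635 TPM in the mutant against 389 to 439 TPM in wild type. The defining leaf transcript for the small subunit of Rubisco summed to 0 to 0.06 TPM. Chlorophyll a-b binding genes summed to 42.5 to 50.2 TPM in the mutant against 47.9 to 63.5 TPM in wild type. The shoot words were therefore higher in the mutant, where the arginine decarboxylase genes were lower, through genes described with photosystem I or II, and the part of this in the results was not tested.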

How the data were processed

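One table from the authors gave, per gene, a value in each of 6 root RNA-seq libraries, without a unit in its header. The deposited values have 2 decimals and columns that sum to 940694 to 974316, so they were taken as TPM, an inference. Per the submitters' processing notes the tools were TopHat2, HISAT2, StringTie and Cufflinks, with no roles. Build and annotation are not given in the sources used here. As TPM keeps no depth, no counting intervals were given. An exact 0 can be a failed estimate.

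Values were analysed as log2(TPM + 1), which understates changes of low genes, for the 17702 genes that reached 1 TPM in 3 or more libraries. Genotypes were compared with limma 3.58.1 (trend, robust, statmod 1.5.0, R 4.3.3) and Benjamini-Hochberg adjustment over all of them, called under 0.05. The main model had genotype alone, without a term for replicate number.

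The arginine decarboxylase genes and the 10 gene lists were chosen with earlier results of these data known, the lists by words in the descriptions. Named genes were all of the putrescine list, up to 3 called genes with the smallest p and the most abundant tested gene per list, the 5 closest profiles and 3 neighbours on either side. Named after their values were seen were Solyc09g075940.3, Solyc02g092260.3, Solyc08g048450.3, Solyc05g005710.3, Solyc09g075900.3, Solyc03g007240.3, Solyc01g010050.3, Solyc02g089610.2, Solyc05g010423.1, Solyc01g087590.3, Solyc03g113800.3, Solyc05g021510.2, Solyc03g117600.3, Solyc12g099000.2, Solyc10g083970.1, Solyc06g060070.3, Solyc11g071470.1, Solyc09g014430.1, Solyc04g072815.1, Solyc08g008087.1 and Solyc12g006450.2. So were Solyc01g095080.3, Solyc11g011920.2, Solyc02g089615.1, Solyc07g049550.3 and Solyc07g049530.3, for which the alternatives are not given. Of the identifiers, 0 matched the RefSeq gene table. Alternatives were a pseudocount of 0.1, no filter, quantile normalization, median centring, a replicate block, a change of at least 2-fold and each library left out. The limma p-values set the genotype difference against the spread among the 3 libraries of each genotype, with spread information shared across genes.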

Additional observations from a re-analysis of the deposited data

How the results depend on the processing

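The arginine decarboxylase genes stayed lower in the mutant in every alternative run, at -1.37 to -1.12 for Solyc10g054440.2 and -1.09 to -0.84 for Solyc01g110440.4 on the log2 scale with one library left out. A threshold of 2-fold was not applied to them, as they were described without a test and no call was sought. Of 27 other named genes that were called, 14 kept the call in all alternatives and 13 lost it in at least one, with no change of direction. TPM hides depth, so the precision of genes at a few TPM is unknown.

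The labels do not say whether replicate numbers pair the samples, and weak correlations of deviations from the group means cannot settle it. Same-numbered libraries had deviations correlated at -0.048, -0.074 and 0.108, and no more than 1 of 3 mutant libraries correlated best with its own number. The highest values elsewhere were 0.141 for mutant replicate 2 with wild type replicate 1 and 0.103 for mutant replicate 1 with wild type replicate 2. Shared batches were not tested. With the replicate block 1276 genes rose and 1499 fell across the table, 1 supply gene rose, 2 genes of the S-adenosylmethionine list fell, 1 amine breakdown gene rose, and 0 GABA genes rose and 1 fell.

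A change of at least 2-fold left 911 genes higher and 1107 lower across the table, 0 supply genes lower, 3 genes of the S-adenosylmethionine list higher, and 1 conjugation and 1 GABA gene lower. Median centring and quantile normalization each gave 1 supply gene higher and 0 GABA genes higher, with 2 and 3 genes of the S-adenosylmethionine list lower. Without a filter 0 GABA genes were higher.

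With one library left out, 994 to 1764 genes rose and 1131 to 2042 fell across the table. The ranges were 0 to 1 for the putrescine list lower, 0 to 2 for supply lower, 0 to 1 for spermidine and spermine higher, 3 to 6 and 1 to 2 for the S-adenosylmethionine list higher and lower, 1 to 2 for breakdown higher, 1 to 3 for conjugation lower, 0 to 1 for eIF5A higher, 0 to 1 and 1 to 2 for GABA higher and lower, and 1 to 2 for other decarboxylases higher. Both counts fell below those of the main fit (1542 higher, 1865 lower) when any library other than wild type replicate 2 was left out. They were lowest without wild type replicate 1 (994 higher, 1131 lower), followed by mutant replicate 3 for higher (995) and mutant replicate 2 for lower (1240). Without wild type replicate 2 both counts were larger (1764 higher, 2042 lower). The cause was not tested. Genes that did not pass changed sign near 0 with one library left out, over -0.00011 to 0.28 for Solyc01g091160.4, -0.098 to 0.12 for Solyc01g110450.3, -0.041 to 0.14 for Solyc01g110470.3, -0.14 to 0.051 for Solyc05g005710.3 and -0.040 to 0.083 for Solyc08g006740.3.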
